A study of Mus musculus with 30 samples.

Results

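The 36 genes described here encode collagen α chains. They are every row of the deposited count table whose mouse symbol has the form Col, a number, a and a number, kept where the mean over the 30 libraries reached 10 counts: 36 of 44 such rows, among 24552 genes. By the kind of assembly their chains build, or by tissue for cartilage, 8 are fibrillar (8 of 8 rows) and 6 are cartilage collagens (6 of 7). A further 6 belong to basement membranes (6 of 8) and 16 to other assemblies (16 of 21). The fibril-forming types II and XI stand in the cartilage class and not in the fibrillar one. Just outside the minimum lay Col6a6 with a mean of 5.87 counts, Col6a5 with 5.3 and Col4a4 with 4.63, and just inside it Col9a1 with 15.2, Col6a4 with 25 and Col22a1 with 38.2. Col10a1, Col19a1, Col25a1, Col26a1 and Col4a3 lay lower still. All 36 members passed the low-count filter of the test.

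The tumours were MC38, a mouse colon carcinoma cell line, placed under the skin of the right flank of female C57BL/6J mice aged 10 weeks. Once tumours measured 200 to 300 mm3, each mouse was injected once into a vein with vehicle, with 0.39 mg/kg mXTX301 or with 0.03 mg/kg of a positive control that carries no mask. Tumours were taken 4 or 7 days later. mXTX301 is a mouse surrogate of a masked interleukin-12, that is, the cytokine carries a blocking part. The doses of mXTX301 and of the unmasked control differ. There were 5 mice and 5 libraries in each of the 6 groups. Polyadenylated RNA of whole tumour pieces was sequenced, so tumour cells and host cells are read together, and fewer cells of a type cannot be told apart from less RNA per cell.

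Collagens are matrix proteins whose α chains wind into a triple helix, and a trimer may hold 1 kind of chain or several. Fibrillar collagens (types I, III and V) form the tensile fibrils of connective tissue and are made mostly by fibroblasts. Type IV forms the mesh of basement membranes under epithelia and around vessels, and types II, IX and XI build the fibrils of cartilage. Type VI forms beaded filaments beside cells, and the FACIT group (fibril-associated collagens with interrupted triple helices) sits on the surface of fibrils. Before a trimer is secreted, its prolines and lysines are hydroxylated and it is folded with dedicated chaperones, after which propeptides are cut off and fibrils are cross-linked. Interleukin-12 is known as an inducer of interferon-γ in T and NK cells.

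Library totals ran from 48.3 to 85.2 M counts, so that the members span from a mean of 15.2 counts a library for Col9a1 to 98921 for Col6a3. Epithelial genes that define colon carcinoma were low. Cdx2 was at 0 in all 30 libraries and Epcam averaged 0.496 CPM (counts scaled to library size with TMM factors). Cdh1 was the highest of these genes, averaging 3.46 CPM, and reached at least 1.35 CPM in every library. In 12 libraries the summed level of the skin keratins Krt5, Krt14, Krt1 and Krt10 lay between 24.1 and 774 CPM, and in the other 18 it was at most 2.21 CPM. The 12 skin-rich libraries comprised 1 of vehicle day 4, 3 of vehicle day 7, 1 of mXTX301 day 4, 2 of mXTX301 day 7, 2 of unmasked control day 4 and 3 of unmasked control day 7. Calls lost without these libraries are named below. T cell and macrophage markers rose with both agents: 7 of 7 T cell and 8 of 8 macrophage markers after mXTX301 on day 7, and 7 of 7 and 7 of 8 after the unmasked control. Among all genes, 25.7% and 23.2% rose in these comparisons. The summed macrophage markers ran from 351 to 986 CPM in vehicle tumours of day 7, from 1688 to 4025 CPM after mXTX301 and from 1118 to 3494 CPM after the unmasked control, and the part of this shift in the collagen values was not tested.

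In vehicle tumours of day 4 the 36 members together took 0.943% ± 0.12 of all counts (mean ± SD, n = 5), and 1.13% ± 0.129 on day 7. After mXTX301 the share was 0.932% ± 0.112 on day 4 and 1.06% ± 0.145 on day 7, and after the unmasked control 0.69% ± 0.0841 and 1% ± 0.0692. Levels of different chains are compared per kb of annotated exon (all exons of a gene merged, retained introns of some transcript models included). On that scale chains of type VI led by mean in vehicle tumours of day 4. Col6a1 stood at 371 ± 70.5 CPM per kb, Col6a2 at 161 ± 32 and Col6a3 at 127 ± 27.1 (mean ± SD, n = 5). The merged exon length was 4.38 kb for Col6a1 and 8.33 kb for Col6a2. In CPM, without this scaling, the 2 chains stood at 1626 ± 309 and 1341 ± 266. Per-kb ranks and ratios of chains depend on these lengths, which are the same in every group. The fibrillar chains Col1a1 (101 ± 32.3 CPM per kb), Col5a1 (77.7 ± 10.3), Col3a1 (76.1 ± 21.5) and Col5a3 (74.6 ± 8.63) followed, all 4 within their spread of each other. Col7a1, the anchoring fibril chain, stood at 58.1 ± 16.1 CPM per kb beside Col16a1 at 57.7 ± 5.67, 2 values that do not differ beyond their spread. Of the basement membrane chains, Col18a1 (29.7 ± 6.64 CPM per kb) and Col4a1 (28.7 ± 1.9) lay within their spread of each other and Col4a2 lay at 21.7 ± 2. The cartilage chains were low, from 3.83 ± 1.1 CPM per kb for Col9a3 down to 0.0601 ± 0.0649 for Col9a1.

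**Figure D1:**
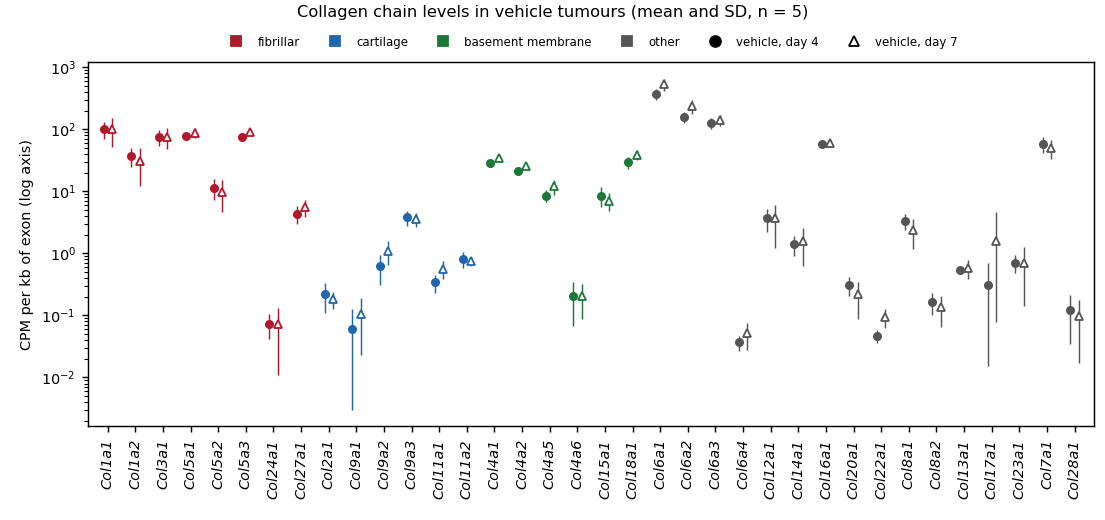
Level of each member in vehicle tumours, as CPM per kb of exon on a log axis, with circles for day 4 and triangles for day 7 (mean and SD, n = 5 libraries). Colours mark the classes. Col6a1, Col6a2 and Col6a3 stand highest, and the cartilage chains lie far below the main fibrillar chains.

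Each drug group was set against the vehicle group of its day with edgeR's quasi-likelihood test, and a gene was called at a Benjamini-Hochberg adjusted p under 0.05 over 15482 genes. log2 differences are given ± their standard error. Both comparisons of a day share the same 5 vehicle libraries, so their values are given side by side and not as independent support of each other. After mXTX301 on day 4, 2 members rose and 1 fell of 36, where 16.2% of all tested genes rose and 16% fell (32.2% in either direction). On day 7, 8 members rose and 10 fell after mXTX301, against 25.7%, 22.7% and 48.4% of all genes. With the unmasked control no member rose on day 4 and 10 fell (all genes, 11.6%, 10.8% and 22.4%). On day 7, 6 members rose and 6 fell (all genes, 23.2%, 21.8% and 45%). The members' counts after mXTX301 on day 7 lie near the share of all genes. For the count of 0 higher on day 4 after the unmasked control, DESeq2 called 1 higher. There 12 members had an unadjusted p under 0.05 in either direction, beside 5491 of the 15482 genes. Without the skin-rich libraries 1 rose and 2 fell after mXTX301 on day 4 and 7 rose and 9 fell on day 7, and 0 rose and 4 fell after the unmasked control on day 4 and 2 rose and 3 fell on day 7. Single libraries moved some counts by over 1.5 times. The 10 lower members of the unmasked control on day 4 became 6 without vehicle replicate 2. On day 7 its 6 higher became 10 without unmasked control replicate 1, and its 6 lower became 10 without vehicle replicate 5. The single lower member of mXTX301 on day 4 became 2 without mXTX301 replicate 1 and 3 without replicate 3, and its 2 higher became 0 or 1 on leaving out any of the 10 libraries. Class medians pointed different ways. On day 7 after mXTX301 the median log2 fold change was 0.92 over the 8 fibrillar members, -0.83 over the 6 cartilage members, -0.07 over the 6 basement membrane members and 0.25 over the other 16. Over all genes it was 0.02. The same medians after the unmasked control were 0.45, -1.07, -0.18 and 0.40, beside 0.01 over all genes. Of the 36, 13 were called in none of the 4 comparisons: Col1a1, Col27a1, Col2a1, Col18a1, Col4a1, Col4a2, Col4a6, Col6a3, Col6a4, Col8a1 (of the short-chain network type VIII) and the transmembrane collagens Col13a1, Col17a1 and Col23a1. The share of all genes called in none of the 4 was not counted, so 13 cannot be read as few or many.

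**Figure D2:**
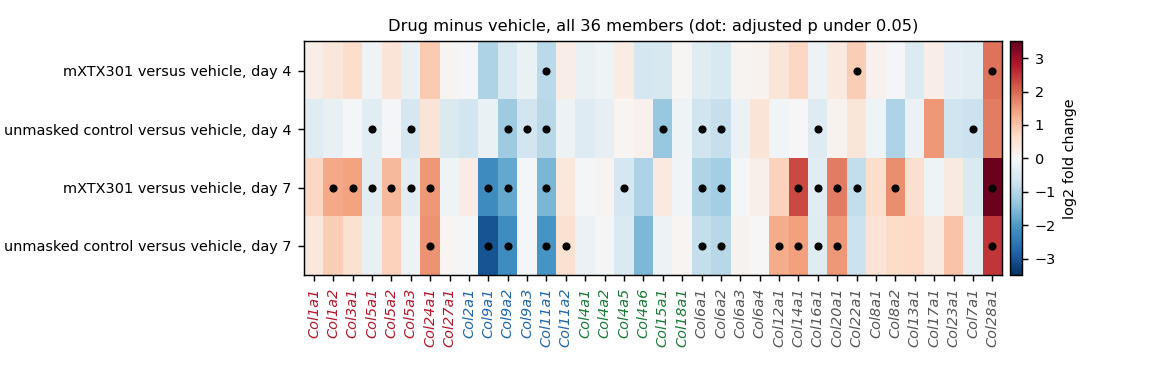
log2 fold change of each of the 36 members (columns, names coloured red for fibrillar, blue for cartilage, green for basement membrane and grey for other) in the 4 drug-versus-vehicle comparisons (rows), red for higher and blue for lower than vehicle. Dots mark an adjusted p under 0.05: 3 and 18 members after mXTX301 on days 4 and 7, and 10 and 12 after the unmasked control.

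Among the 8 fibrillar members, 4 rose and 2 fell after mXTX301 on day 7 (all genes, 25.7% and 22.7%), none was called after mXTX301 on day 4, and type V held chains called in each direction. The chains of types I, III and V are assembled as Col1a1 with Col1a2, as Col3a1 alone, and as mixtures of Col5a1, Col5a2 and Col5a3. The sequence before the start of Col1a2 and of Col3a1, both of which rose on day 7, is given below from RefSeq (GRCm38.p6, the assembly of mm10), 5′ to 3′ on the gene's strand. Bases inside the gene or inside an exon of any GENCODE transcript were left out and the longest remaining run of the table's 250 bases is printed. For Col3a1 it reaches the annotated start of the gene, whereas for Col1a2 it stops 125 bases before it, and those bases are not printed. Capitals mark a TATA box (TATAAA) or a GC box (GGGCGG), searched on both strands together with the CCAAT box (CCAAT) and the interferon-related GAS motif (TTCNNNGAA).
Col1a2, chr6:4505370-4505492, + strand: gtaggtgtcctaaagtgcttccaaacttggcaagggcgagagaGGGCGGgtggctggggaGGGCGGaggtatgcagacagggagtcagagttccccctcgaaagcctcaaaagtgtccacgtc
Col3a1, chr1:45311288-45311537, + strand: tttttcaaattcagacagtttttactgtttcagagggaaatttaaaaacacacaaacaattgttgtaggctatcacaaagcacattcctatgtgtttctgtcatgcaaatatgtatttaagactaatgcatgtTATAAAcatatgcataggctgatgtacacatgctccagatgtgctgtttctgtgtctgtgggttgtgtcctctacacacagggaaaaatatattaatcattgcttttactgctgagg
The printed Col1a2 window of 123 bases held 2 GC boxes, which 13.3% of 32851 promoters held at least once over the same length. The Col3a1 window of 250 bases held 1 TATA box, found in 12.4% of promoters over that length. The Col3a1 window held no CCAAT box and no GAS motif, which 33.8% and 7.02% of promoters held over 250 bases. In the untrimmed 250 bases of Col1a2 there was 1 CCAAT box, in the stretch not printed, and no TATA box or GAS motif. Of the 36 members, 29 had an entry in the promoter table.

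Col3a1 (gene 12825, chr1:45311538-45349706, + strand) encodes the type III chain of soft connective tissue. On day 4, Col3a1 stood at 764, 702, 1084, 510.2 and 675 CPM in the 5 vehicle tumours, at 657, 1310.2, 1144, 1304 and 1290.1 CPM after mXTX301 and at 331, 1373, 883, 506 and 481 CPM after the unmasked control. On day 7, Col3a1 stood at 714, 586, 1247, 576 and 643 CPM in the 5 vehicle tumours, at 843, 2118, 1069, 1861 and 4058 CPM after mXTX301 and at 605, 1438, 868, 1313 and 1249 CPM after the unmasked control. Here and below the 5 values of a group stand in the order of replicate number. The highest value of all 30 libraries was mXTX301 replicate 5 of day 7, and the groups overlapped on both days. Col3a1 was 2.64-fold higher (log2 1.40 ± 0.38, adjusted p = 0.00389) after mXTX301 on day 7. Without that replicate the difference was log2 0.96, still called. On day 4 after mXTX301 it differed by log2 0.61 ± 0.38, adjusted p = 0.229. The unmasked control gave log2 -0.06 ± 0.38, adjusted p = 0.92 on day 4 and log2 0.54 ± 0.38, adjusted p = 0.251 on day 7.

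Col1a1 (gene 12842, chr11:94936224-94953042, + strand) encodes the major chain of type I. On day 4, Col1a1 stood at 674, 646, 999, 576 and 421 CPM in the 5 vehicle tumours, at 669.8, 801, 795, 785 and 836 CPM after mXTX301 and at 215, 916, 592, 442 and 294 CPM after the unmasked control. On day 7, Col1a1 stood at 557, 245, 1105, 605 and 817 CPM in the 5 vehicle tumours, at 746, 1045, 859, 1049.5 and 1776 CPM after mXTX301 and at 384, 1313, 681, 779 and 1122 CPM after the unmasked control. Vehicle tumours of day 7 spanned a wide range, and all groups overlapped. No drug comparison called Col1a1: the differences from vehicle were log2 0.23 ± 0.37, adjusted p = 0.675 and log2 0.72 ± 0.37, adjusted p = 0.108 after mXTX301 on days 4 and 7. They were log2 -0.43 ± 0.37, adjusted p = 0.418 and log2 0.36 ± 0.37, adjusted p = 0.44 after the unmasked control. Its partner Col1a2 averaged 389 ± 239 CPM in vehicle tumours and 980.0 ± 430.5 CPM after mXTX301 on day 7 (mean ± SD, n = 5), 2.52-fold higher (log2 1.33 ± 0.43, adjusted p = 0.012). The call was lost without mXTX301 replicate 5 (log2 1.03, adjusted p = 0.0576). Per kb, Col1a1 stood at 3.54 ± 0.968 times Col1a2 in vehicle tumours of day 7 and at 2.17 ± 0.169 times after mXTX301 (mean ± SD of the ratio within a library, n = 5, not tested). The merged exon lengths behind this ratio were 6.56 kb for Col1a1 and 12.4 kb for Col1a2.

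The type V chains went different ways on day 7 after mXTX301. Col5a1, which starts and limits fibril growth, averaged 752 ± 132 CPM in vehicle and 585 ± 75.4 CPM after mXTX301, 1.29-fold lower (log2 -0.36 ± 0.11, adjusted p = 0.00815). Col5a3, a minor type V chain, was 1.32-fold lower (log2 -0.40 ± 0.13, adjusted p = 0.0109). Col5a2, the partner of Col5a1, averaged 95 ± 50.4 and 208 ± 55.8 CPM and was 2.19-fold higher (log2 1.13 ± 0.36, adjusted p = 0.012). The ratio of Col5a1 to Col5a2 per kb was 11.4 ± 5.86 in vehicle and 3.43 ± 1.23 after mXTX301 (not tested). On day 4 with the unmasked control, Col5a1 was 1.32-fold lower (log2 -0.40 ± 0.11, adjusted p = 0.00956) and Col5a3 1.49-fold lower (log2 -0.58 ± 0.13, adjusted p = 0.00183). On day 7 Col5a1 missed the threshold (log2 -0.27 ± 0.11, adjusted p = 0.0508), as it did after mXTX301 on day 4 (log2 -0.12 ± 0.11, adjusted p = 0.431). Col5a3 lost its mXTX301 call on day 7 without the skin-rich libraries (log2 -0.43, adjusted p = 0.0575). Col24a1, a low-abundance fibrillar chain, rose on day 7 with both agents, 2.88-fold higher (log2 1.52 ± 0.46, adjusted p = 0.00805) after mXTX301 and 2.96-fold higher (log2 1.57 ± 0.46, adjusted p = 0.00728) after the unmasked control. Its levels were 0.551 ± 0.468 CPM in vehicle, 1.59 ± 0.294 CPM after mXTX301 and 1.63 ± 0.845 CPM after the unmasked control. The latter call ended at the threshold without the skin-rich libraries (log2 1.86, adjusted p = 0.05). Col1a2 and Col5a2 fall outside the naming rule and were singled out after their values were seen, as partners of Col1a1 and Col5a1.

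Fibroblast markers rose on day 7 as well. Of 12 markers (Pdgfra, Dpt, Lum, Dcn, Fap, Thy1, Pdpn, Mmp2, Pi16, Cd34, Lrrc15 and Postn), 8 rose after mXTX301 on day 7 and 5 after the unmasked control, 1 rose in each day 4 comparison, and none fell or stood at 0 in any library. Over all genes, 25.7% and 23.2% rose on day 7 and 16.2% and 11.6% on day 4, in the same order of agents. Those with the smallest adjusted p on day 7 after mXTX301 were Pdpn (log2 2.11 ± 0.27, adjusted p = 8.96e-07), Thy1 (log2 1.28 ± 0.26, adjusted p = 0.000309), Mmp2 (log2 1.61 ± 0.36, adjusted p = 0.000738) and Pi16 (log2 3.74 ± 0.87, adjusted p = 0.00106). The summed level ran from 1097 to 1368 CPM in vehicle tumours of day 4, 1289 to 1597 CPM after mXTX301 and 1061 to 1484 CPM after the unmasked control. On day 7 the ranges were 1020.4 to 1382, 1492 to 2279 and 1226 to 1853 CPM. mXTX301 replicate 5 of day 7 was highest in the fibroblast sum and also in the summed adipocyte markers, at 237 CPM, where vehicle tumours of that day held 13.1 to 56.1 CPM. The part of fibroblast or fat content in the collagen values was not tested beyond the relation given further on.

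On day 7 after mXTX301, Col6a1 and Col6a2 of type VI fell where Col3a1 and Col1a2 rose. The type VI trimer holds Col6a1, Col6a2 and Col6a3, and the first and second of these genes lie next to each other on chromosome 10. Col6a1 and Col6a2 fell in 3 of the 4 drug comparisons, whereas Col6a3 was called in none. The windows before both transcript starts, shown because the neighbours fell together, were these, with the GC box in capitals (on the opposite strand it reads CCGCCC). The Col6a2 window reaches the annotated gene start, and the Col6a1 window stops 124 bases before it, for the same reason as Col1a2.
Col6a1, chr10:76726169-76726294, - strand: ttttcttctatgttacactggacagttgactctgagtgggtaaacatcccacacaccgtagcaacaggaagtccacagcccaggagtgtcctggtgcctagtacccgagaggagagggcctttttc
Col6a2, chr10:76623631-76623880, - strand: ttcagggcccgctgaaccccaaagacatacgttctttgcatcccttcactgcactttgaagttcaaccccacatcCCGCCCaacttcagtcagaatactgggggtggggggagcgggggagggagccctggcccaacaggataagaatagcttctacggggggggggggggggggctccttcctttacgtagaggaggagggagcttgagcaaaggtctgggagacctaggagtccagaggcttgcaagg
The Col6a1 window of 126 bases held none of the 4 motifs searched, nor did its untrimmed 250 bases, and the Col6a2 window of 250 bases held 1 GC box, as did 32.7% of promoters over that length. Col6a2 has 2 promoter entries, and the one not printed held 3 GC boxes in its untrimmed 250 bases. Over 126 bases, 6.26% of promoters held a TATA box, 16.9% a CCAAT box, 13.5% a GC box and 3.63% a GAS motif.

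For Col6a1 (gene 12833, chr10:76708792-76726044, - strand), the most abundant member per kb, the levels were as follows. On day 4, Col6a1 stood at 1689, 1951, 1143, 1544 and 1803 CPM in the 5 vehicle tumours, at 996, 1154, 1738, 1441 and 733 CPM after mXTX301 and at 1148, 638, 1133, 1239 and 847 CPM after the unmasked control. On day 7, Col6a1 stood at 3086, 2566, 2071, 2203 and 1713 CPM in the 5 vehicle tumours, at 1369, 866, 1389.9, 1209 and 809.8 CPM after mXTX301 and at 1559, 1029, 1626, 1361 and 1011 CPM after the unmasked control. On day 7 all 5 tumours of each drug group lay below all 5 vehicle tumours, and on day 4 the groups overlapped. On day 7 Col6a1 was 2.06-fold lower (log2 -1.04 ± 0.22, adjusted p = 0.000412) after mXTX301 and 1.77-fold lower (log2 -0.82 ± 0.22, adjusted p = 0.00379) after the unmasked control. On day 4 it was 1.62-fold lower (log2 -0.70 ± 0.22, adjusted p = 0.0231) after the unmasked control, a call lost without vehicle replicate 2 or unmasked control replicate 2 or 5 (log2 -0.65 to -0.57, adjusted p = 0.0544 to 0.0768). After mXTX301 the day 4 difference was log2 -0.42 ± 0.22, adjusted p = 0.148. Without the skin-rich libraries the day 7 call held after mXTX301 (log2 -1.46, adjusted p = 0.00236) and was lost after the unmasked control (log2 -0.86, adjusted p = 0.0837), as was its day 4 call (log2 -0.76, adjusted p = 0.0687).

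Col6a2 (gene 12834, chr10:76595756-76623630, - strand) followed the same order. On day 4, Col6a2 stood at 1419, 1647, 959, 1202 and 1477 CPM in the 5 vehicle tumours, at 705, 899.8, 1389, 1106 and 553 CPM after mXTX301 and at 905, 456, 882, 968 and 631 CPM after the unmasked control. On day 7, Col6a2 stood at 2709, 2252, 1728, 1838 and 1423 CPM in the 5 vehicle tumours, at 1019.9, 662, 1096, 921 and 627 CPM after mXTX301 and at 1248, 747, 1270.5, 1034 and 814 CPM after the unmasked control. Again no drug-treated tumour of day 7 reached the lowest vehicle tumour. On day 7 Col6a2 was 2.3-fold lower (log2 -1.20 ± 0.24, adjusted p = 0.000232) after mXTX301 and 1.95-fold lower (log2 -0.96 ± 0.24, adjusted p = 0.0021) after the unmasked control. On day 4 it was 1.75-fold lower (log2 -0.80 ± 0.24, adjusted p = 0.0168) after the unmasked control and differed by log2 -0.53 ± 0.24, adjusted p = 0.0936 after mXTX301. The day 4 call was lost without unmasked control replicate 2 (log2 -0.66, adjusted p = 0.0572). Without the skin-rich libraries the calls after the unmasked control were lost on day 4 (log2 -0.88, adjusted p = 0.0545) and day 7 (log2 -1.0, adjusted p = 0.0679), and the one after mXTX301 held (log2 -1.63, adjusted p = 0.00206). Within libraries the per-kb ratio of Col6a1 to Col6a2 was 2.24 ± 0.0639 in vehicle and 2.48 ± 0.0523 after mXTX301 on day 7.

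Col6a3 (gene 12835, chr1:90766860-90844001, - strand) encodes the longest chain of the same trimer. On day 4, Col6a3 stood at 1706, 1779, 1359, 1723 and 1019 CPM in the 5 vehicle tumours, at 1650.0, 1563, 1686, 1835 and 1409 CPM after mXTX301 and at 1279.6, 1317, 1431, 1493 and 1066 CPM after the unmasked control. On day 7, Col6a3 stood at 1865, 1112, 1899, 1873 and 1673 CPM in the 5 vehicle tumours, at 1918, 1511, 1919.9, 1589 and 1186 CPM after mXTX301 and at 1934, 1486, 2184, 1884 and 1628 CPM after the unmasked control. Drug and vehicle values lay among each other on both days. The differences from vehicle were log2 0.10 ± 0.15, adjusted p = 0.655 and log2 -0.05 ± 0.15, adjusted p = 0.805 after mXTX301 on days 4 and 7. The unmasked control gave log2 -0.20 ± 0.15, adjusted p = 0.357 and log2 0.11 ± 0.15, adjusted p = 0.573. Per kb, Col6a1 stood at 3.96 ± 1.47 times Col6a3 in vehicle tumours of day 7, at 1.89 ± 0.195 times after mXTX301 and at 1.96 ± 0.186 times after the unmasked control (mean ± SD, n = 5, not tested).

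**Figure D3:**
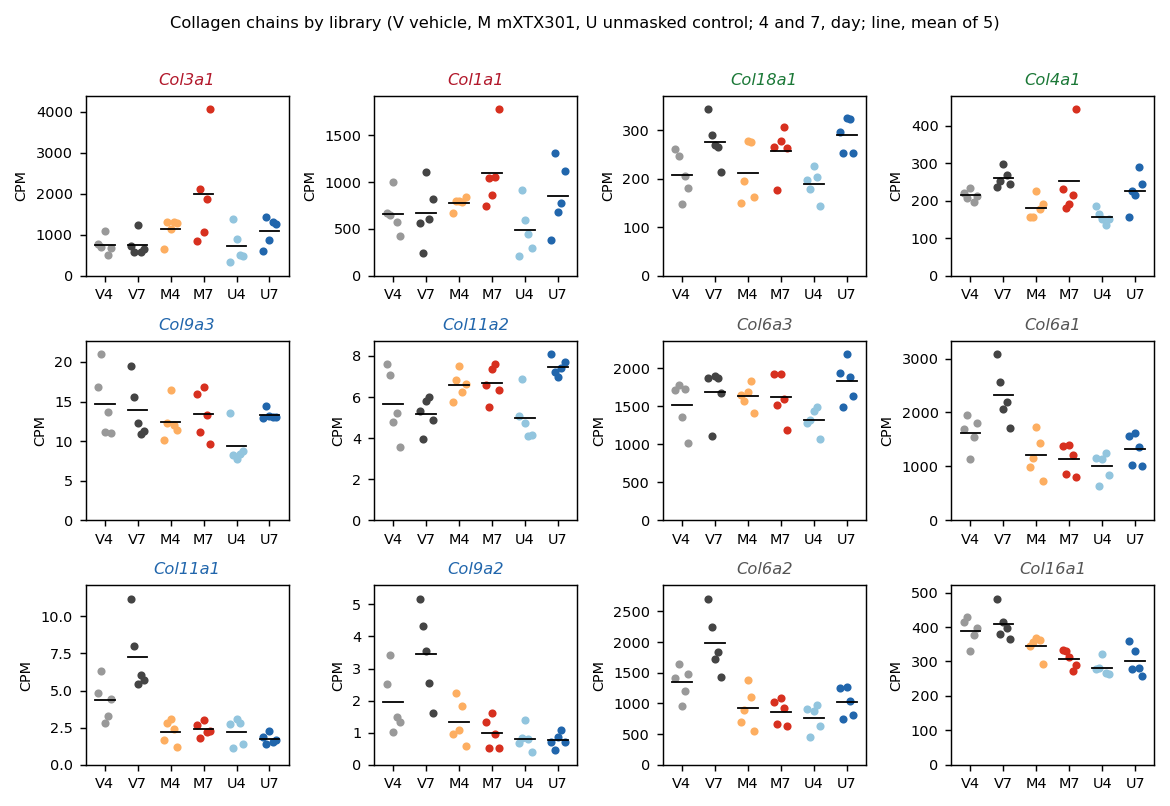
Level in CPM (vertical axis, linear) of 12 members in all 30 libraries, by treatment (V vehicle, M mXTX301, U unmasked control) and day (4, 7); points are libraries and lines are means of 5. Col6a1, Col6a2, Col11a1 and Col16a1 show every drug-treated tumour of day 7 below every vehicle tumour of day 7. Col3a1 and Col1a1 overlap, and mXTX301 day 7 holds the highest tumour of each. Col11a1, Col9a2, Col6a2 and Col16a1 are shown for their small adjusted p in the drug-versus-vehicle comparisons. The share of all genes that separate in this way was not counted.

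The cartilage class was low in level. Of its 6 members, 1 fell after mXTX301 on day 4 and 3 on day 7, where 16% and 22.7% of all genes fell. With the unmasked control 3 fell on each day (all genes, 10.8% and 21.8%), and 1, Col11a2, rose on day 7 (all genes, 23.2%). Col11a1 and Col11a2 encode chains of type XI, which nucleates cartilage fibrils, and Col9a1, Col9a2 and Col9a3 those of type IX, a FACIT collagen on their surface. Col11a1 was the member with the smallest adjusted p of all 36 on day 7 in both drug comparisons, and the window before its start is printed for that reason, with a GC box and a CCAAT box in capitals (the latter on the opposite strand, where it reads ATTGG).
Col11a1, chr3:114030290-114030478, + strand: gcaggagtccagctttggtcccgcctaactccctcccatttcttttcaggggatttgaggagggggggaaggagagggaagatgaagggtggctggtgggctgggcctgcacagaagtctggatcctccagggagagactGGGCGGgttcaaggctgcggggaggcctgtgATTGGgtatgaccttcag
Over 189 bases, 22.6% of promoters held a GC box and 26.5% a CCAAT box. The untrimmed 250 bases held 2 GC boxes. The printed window held no TATA box and no GAS motif, which 8.69% and 5.51% of promoters held.

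Col11a1 (gene 12814, chr3:114030479-114220756, + strand) was the only member called in all 4 drug-versus-vehicle comparisons. On day 4, Col11a1 stood at 4.82, 6.32, 2.85, 3.26 and 4.46 CPM in the 5 vehicle tumours, at 1.69, 2.8, 3.1, 2.41 and 1.2 CPM after mXTX301 and at 2.71, 1.14, 3.06, 2.84 and 1.43 CPM after the unmasked control. On day 7, Col11a1 stood at 11.2, 7.99, 5.47, 6.02 and 5.7 CPM in the 5 vehicle tumours, at 2.66, 1.82, 3.02, 2.17 and 2.28 CPM after mXTX301 and at 1.89, 1.37, 2.25, 1.53 and 1.66 CPM after the unmasked control. Every drug-treated tumour of day 7 lay below every vehicle tumour, and on day 4 the groups overlapped. It was 1.94-fold lower (log2 -0.95 ± 0.28, adjusted p = 0.0114) after mXTX301 on day 4 and 3.04-fold lower (log2 -1.60 ± 0.29, adjusted p = 5.6e-05) on day 7. With the unmasked control it was 1.94-fold lower (log2 -0.96 ± 0.28, adjusted p = 0.0152) on day 4 and 4.18-fold lower (log2 -2.06 ± 0.29, adjusted p = 3.37e-06) on day 7. The day 4 call after the unmasked control was lost without vehicle replicate 2 or unmasked control replicate 2 (log2 -0.79, adjusted p = 0.0517 to 0.0518), and also without the skin-rich libraries (log2 -1.01, adjusted p = 0.0898).

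Col9a2 (gene 12840, chr4:121039566-121055325, + strand) lay lower still. On day 4, Col9a2 stood at 2.51, 3.41, 1.03, 1.49 and 1.32 CPM in the 5 vehicle tumours, at 0.969, 2.23, 1.08, 1.82 and 0.593 CPM after mXTX301 and at 0.669, 0.837, 1.39, 0.789 and 0.405 CPM after the unmasked control. On day 7, Col9a2 stood at 5.18, 4.33, 3.55, 2.56 and 1.6 CPM in the 5 vehicle tumours, at 1.32, 0.537, 1.63, 0.959 and 0.524 CPM after mXTX301 and at 0.701, 0.457, 0.854, 1.09 and 0.722 CPM after the unmasked control. On day 7 all 5 unmasked control tumours lay below the vehicle tumours, and after mXTX301 1 tumour passed the lowest vehicle tumour. Col9a2 was 3.46-fold lower (log2 -1.79 ± 0.41, adjusted p = 0.000826) after mXTX301 and 4.49-fold lower (log2 -2.17 ± 0.42, adjusted p = 0.000151) after the unmasked control on day 7. On day 4 it was 2.39-fold lower (log2 -1.25 ± 0.41, adjusted p = 0.0268) after the unmasked control and log2 -0.54 ± 0.40, adjusted p = 0.322 after mXTX301. That day 4 call was lost without vehicle replicate 1 or 2 or unmasked control replicate 1, 2, 4 or 5 (log2 -1.26 to -0.96, adjusted p = 0.0509 to 0.101), and without the skin-rich libraries (log2 -1.10, adjusted p = 0.165). Col9a1, near the count minimum, averaged 0.539 ± 0.42 CPM in vehicle and 0.0658 ± 0.0731 CPM after the unmasked control on day 7, 8.14-fold lower (log2 -3.02 ± 0.85, adjusted p = 0.00496). Leaving out unmasked control replicate 4 gave log2 -3.87, and leaving out the skin-rich libraries ended the call (log2 -2.26, adjusted p = 0.222). After mXTX301 Col9a1 was 4.62-fold lower (log2 -2.21 ± 0.81, adjusted p = 0.0262), a call lost without vehicle replicate 1 or 2 or mXTX301 replicate 1, 2, 3 or 5 (log2 -2.13 to -1.82, adjusted p = 0.0523 to 0.076), while leaving out mXTX301 replicate 4 gave log2 -3.31. It too was lost without the skin-rich libraries (log2 -2.22, adjusted p = 0.134).

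Col9a3 (gene 12841, chr2:180598102-180622192, + strand) and Col11a2 (gene 12815, chr17:34038919-34066684, + strand) had the highest mean counts of the cartilage members. On day 4, Col9a3 stood at 16.8, 21, 11.2, 13.6 and 11 CPM in the 5 vehicle tumours, at 10.2, 12.3, 16.4, 12 and 11.4 CPM after mXTX301 and at 13.6, 8.18, 7.72, 8.43 and 8.8 CPM after the unmasked control. On day 7, Col9a3 stood at 19.5, 15.5, 12.3, 10.8 and 11.3 CPM in the 5 vehicle tumours, at 15.9, 11.1, 16.9, 13.3 and 9.58 CPM after mXTX301 and at 12.9, 14.5, 13.1, 13 and 13 CPM after the unmasked control. In the unmasked control group of day 4, 4 of 5 tumours lay below all vehicle tumours, and Col9a3 was 1.58-fold lower (log2 -0.66 ± 0.19, adjusted p = 0.014). The call was lost without vehicle replicate 2 (log2 -0.50, adjusted p = 0.0579), and without the skin-rich libraries (log2 -0.61, adjusted p = 0.13). Its other differences from vehicle were log2 -0.24 ± 0.19, adjusted p = 0.357 and log2 -0.06 ± 0.19, adjusted p = 0.828 after mXTX301 on days 4 and 7. On day 7 the unmasked control gave log2 -0.06 ± 0.19, adjusted p = 0.81. On day 4, Col11a2 stood at 7.59, 7.09, 4.79, 5.25 and 3.55 CPM in the 5 vehicle tumours, at 5.75, 6.83, 7.53, 6.24 and 6.66 CPM after mXTX301 and at 5.08, 6.86, 4.73, 4.1 and 4.17 CPM after the unmasked control. On day 7, Col11a2 stood at 5.31, 3.96, 5.8, 6.01 and 4.9 CPM in the 5 vehicle tumours, at 6.58, 5.53, 7.36, 7.61 and 6.32 CPM after mXTX301 and at 8.1, 7.24, 6.97, 7.4 and 7.7 CPM after the unmasked control. All 5 unmasked control tumours of day 7 lay above the vehicle tumours, and Col11a2 was 1.44-fold higher (log2 0.53 ± 0.16, adjusted p = 0.0105), a call lost without the skin-rich libraries (log2 0.45, adjusted p = 0.304). The other comparisons gave log2 0.22 ± 0.16, adjusted p = 0.318 and log2 0.36 ± 0.16, adjusted p = 0.0688 after mXTX301 on days 4 and 7. On day 4 the unmasked control gave log2 -0.18 ± 0.16, adjusted p = 0.453. Col2a1, the main collagen of cartilage, averaged 1.69 ± 0.518 CPM in vehicle and 2.02 ± 0.59 CPM after mXTX301 on day 7.

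Genes that define chondrocytes and bone cells were near 0: Acan averaged 1.53 counts a library, Matn1 1.1, Chad 0.3, Ibsp 0.4 and Cnmd 0.867, and 3 of the 10 markers (Comp, Sox9 and Bglap) passed the filter. Sox9, a transcription factor of chondrocytes that other cells also express, made up most of the summed level, which ran from 114 to 151 CPM in vehicle tumours of day 7, 95.9 to 127 CPM after mXTX301 and 95.7 to 124 CPM after the unmasked control. Sox9 fell after the unmasked control on day 7 (log2 -0.28 ± 0.12, adjusted p = 0.0452) and after mXTX301 on day 4 (log2 -0.32 ± 0.12, adjusted p = 0.0347). Comp and Bglap rose after mXTX301 on day 7 (log2 1.93 ± 0.59, adjusted p = 0.00875 and log2 1.74 ± 0.64, adjusted p = 0.0255). Both were very low: Comp averaged 17 counts a library (0.285 CPM), and Bglap 6.83 counts (0.113 CPM), with 0 in 1 library.

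Of the 6 basement membrane members, 1 fell after mXTX301 on day 7 and none was called on day 4, where 48.4% and 32.2% of all genes were called. With the unmasked control 1 fell on day 4 and none was called on day 7 (all genes, 22.4% and 45%), and 4 of the 6 rose between the days within that group, as given further on. The member that fell on day 4 was Col15a1, whose product joins basement membranes to the interstitial matrix, at 54.5 ± 19.2 CPM in vehicle and 21.7 ± 9.7 CPM after the unmasked control, 2.51-fold lower (log2 -1.33 ± 0.30, adjusted p = 0.00237). Without the skin-rich libraries it missed the threshold (log2 -1.12, adjusted p = 0.0697). Col4a5, a chain of a minor type IV network, was the member that fell after mXTX301 on day 7, 1.49-fold lower (log2 -0.58 ± 0.23, adjusted p = 0.0387), outside the naming rule. The call was lost without vehicle replicate 1 or 2 or mXTX301 replicate 2, 4 or 5 (log2 -0.58 to -0.44, adjusted p = 0.0614 to 0.11).

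Col4a1 (gene 12826, chr8:11198423-11312889, - strand) and Col4a2 encode the main type IV chains and lie head to head on chromosome 8. On day 4, Col4a1 stood at 219.9, 208, 235, 197 and 212 CPM in the 5 vehicle tumours, at 157, 155, 226, 177 and 192 CPM after mXTX301 and at 186, 166, 150.1, 135 and 152 CPM after the unmasked control. On day 7, Col4a1 stood at 238, 253, 299, 270.1 and 245 CPM in the 5 vehicle tumours, at 231, 181, 190.4, 215 and 444 CPM after mXTX301 and at 157, 226, 215, 291 and 246 CPM after the unmasked control. All 5 unmasked control tumours of day 4 lay below the vehicle tumours, yet the difference missed the threshold (log2 -0.44 ± 0.18, adjusted p = 0.0715). mXTX301 replicate 5 of day 7 was the highest of all libraries, as it was for Col3a1. The other Col4a1 differences were log2 -0.24 ± 0.18, adjusted p = 0.323 and log2 -0.05 ± 0.18, adjusted p = 0.837 after mXTX301 on days 4 and 7. On day 7 the unmasked control gave log2 -0.20 ± 0.18, adjusted p = 0.366. Col4a2 differed from vehicle by log2 -0.16 ± 0.17, adjusted p = 0.521 and log2 0.09 ± 0.17, adjusted p = 0.671 after mXTX301 on days 4 and 7. The unmasked control gave log2 -0.28 ± 0.17, adjusted p = 0.239 and log2 -0.04 ± 0.17, adjusted p = 0.874. The per-kb ratio of Col4a1 to Col4a2 lay between 1.18 and 1.36 in the means of the 6 groups.

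Col18a1 (gene 12822, chr10:77052178-77166530, - strand) encodes a basement membrane collagen whose end fragment is endostatin. On day 4, Col18a1 stood at 261, 247, 148, 205 and 181 CPM in the 5 vehicle tumours, at 149.6, 196, 278, 276 and 163 CPM after mXTX301 and at 197, 178, 225, 204 and 143 CPM after the unmasked control. On day 7, Col18a1 stood at 343, 289, 268, 266 and 214 CPM in the 5 vehicle tumours, at 265, 177, 277, 306 and 263 CPM after mXTX301 and at 296, 254, 324, 323 and 253 CPM after the unmasked control. Treated and vehicle tumours overlapped on both days. No drug comparison called it: log2 0.03 ± 0.18, adjusted p = 0.921 and log2 -0.10 ± 0.18, adjusted p = 0.673 after mXTX301 on days 4 and 7. The unmasked control gave log2 -0.14 ± 0.18, adjusted p = 0.606 and log2 0.07 ± 0.18, adjusted p = 0.768.

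Endothelial markers moved on day 4. Of 10, 5 fell after mXTX301 and 8 after the unmasked control, none rose, and on day 7 none was called in either. Over all genes, 16% and 10.8% fell on day 4, and 48.4% and 45% were called on day 7. Sox18 (log2 -1.50 ± 0.25, adjusted p = 0.000106), Kdr (log2 -1.42 ± 0.26, adjusted p = 0.000276), Emcn (log2 -1.19 ± 0.25, adjusted p = 0.00126) and Tie1 (log2 -1.02 ± 0.24, adjusted p = 0.00316) led after the unmasked control. The summed level on day 4 ran from 151 to 212 CPM in vehicle tumours, 96.5 to 155 CPM after mXTX301 and 88.4 to 117 CPM after the unmasked control. On day 7 it ran from 155 to 217, 116 to 336 and 122 to 229.6 CPM, and none of the 10 stood at 0 in any library. Of 10 pericyte and smooth muscle markers, 2 and 3 fell on day 4, among them Mcam (log2 -0.78 ± 0.16, adjusted p = 0.000785 after mXTX301, log2 -1.11 ± 0.16, adjusted p = 2.97e-05 after the unmasked control), and 3 rose after mXTX301 on day 7. Their summed level on day 4 ran from 198 to 293, 194 to 282 and 148 to 214 CPM in the same order. The part of vessel content in the Col15a1 and type IV values was not tested.

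Among the FACIT members outside the cartilage class, Col16a1 fell while Col14a1 and Col20a1 rose. Of type IX, the FACIT collagen kept in the cartilage class, Col9a1 and Col9a2 fell on day 7, as given above. Col16a1 (gene 107581, chr4:130047817-130099277, + strand) is the most abundant FACIT member here. On day 4, Col16a1 stood at 415, 429, 331, 377 and 396 CPM in the 5 vehicle tumours, at 345, 356, 367, 363 and 292 CPM after mXTX301 and at 278, 280.4, 322, 267 and 265 CPM after the unmasked control. On day 7, Col16a1 stood at 483, 381, 416, 396 and 364 CPM in the 5 vehicle tumours, at 334, 331, 312, 271 and 290.2 CPM after mXTX301 and at 358, 279, 329.6, 282 and 259 CPM after the unmasked control. In 3 of the 4 drug groups all 5 tumours lay below the vehicle tumours of their day, the exception being mXTX301 on day 4. The fall was small and its error narrow: Col16a1 was 1.38-fold lower (log2 -0.46 ± 0.09, adjusted p = 0.000616) after the unmasked control on day 4, 1.35-fold lower (log2 -0.44 ± 0.09, adjusted p = 0.000373) on day 7, and 1.33-fold lower (log2 -0.41 ± 0.09, adjusted p = 0.000665) after mXTX301 on day 7. It missed the threshold after mXTX301 on day 4 (log2 -0.18 ± 0.09, adjusted p = 0.14) and, without the skin-rich libraries, after the unmasked control on day 7 (log2 -0.46, adjusted p = 0.0558).

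Col14a1, which encodes a FACIT chain that binds type I fibrils and decorin, averaged 11.1 ± 6.62 CPM in vehicle, 55.4 ± 53.9 CPM after mXTX301 and 30.1 ± 16.3 CPM after the unmasked control on day 7. It was 4.99-fold higher (log2 2.32 ± 0.57, adjusted p = 0.0016) after mXTX301, and without mXTX301 replicate 5 log2 1.52 (adjusted p = 0.0174). With the unmasked control it was 2.71-fold higher (log2 1.44 ± 0.55, adjusted p = 0.0358). This call was lost without vehicle replicate 1, 2, 4 or 5 or unmasked control replicate 2, 4 or 5 (log2 1.19 to 1.39, adjusted p = 0.0619 to 0.102), and without the skin-rich libraries (log2 1.86, adjusted p = 0.134). Col20a1 averaged 1.14 ± 0.679, 3.94 ± 1.23 and 3.25 ± 0.523 CPM in vehicle, mXTX301 and unmasked control tumours of day 7, and all tumours of each drug group lay above all vehicle tumours. It was 3.47-fold higher (log2 1.79 ± 0.41, adjusted p = 0.00074) and 2.87-fold higher (log2 1.52 ± 0.40, adjusted p = 0.00333). Col12a1, which encodes a FACIT chain of tension-bearing tissue, rose after the unmasked control on day 7, 2.44-fold higher (log2 1.29 ± 0.43, adjusted p = 0.018). The call was lost without vehicle replicate 1 or 2 or unmasked control replicate 2 or 5 (log2 0.96 to 1.15, adjusted p = 0.0511 to 0.0812), and without the skin-rich libraries (log2 0.37, adjusted p = 0.645). After mXTX301 on day 7 Col12a1 differed by log2 0.79 ± 0.43, adjusted p = 0.131.

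Col22a1, a FACIT chain of tissue junctions, went in opposite directions on days 4 and 7 after mXTX301. It averaged 0.434 ± 0.107 CPM in vehicle and 0.791 ± 0.218 CPM after mXTX301 on day 4, where it was 1.82-fold higher (log2 0.86 ± 0.32, adjusted p = 0.0421). On day 7 the means were 0.879 ± 0.294 and 0.481 ± 0.148 CPM, and it was 1.82-fold lower (log2 -0.87 ± 0.32, adjusted p = 0.0279). The change of the mXTX301 effect between days was log2 -1.73 ± 0.46, adjusted p = 0.0318, the only member called of 36, where 4.99% of all genes were called (1.95% higher, 3.04% lower). The day 4 call was lost without vehicle replicate 1, 2, 3 or 4 or mXTX301 replicate 1, 4 or 5 (log2 0.72 to 0.90, adjusted p = 0.0526 to 0.112). The day 7 call was lost without vehicle replicate 1 or 2 or mXTX301 replicate 2 or 5 (log2 -0.83 to -0.74, adjusted p = 0.052 to 0.076). The change between days was lost without vehicle day 4 replicate 3 or vehicle day 7 replicate 1, 2 or 4 or mXTX301 day 4 replicate 1 or 4 or mXTX301 day 7 replicate 4 or 5 (log2 -1.84 to -1.59, adjusted p = 0.0503 to 0.0679). For the unmasked control no member's effect was called as differing between days by edgeR's quasi-likelihood test (all genes, 5.15%, of which 2.95% higher and 2.2% lower). There 11 members had an unadjusted p under 0.05, beside 4016 of all 15482 genes, and DESeq2 called 1 member higher and 1 lower.

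Col28a1, a chain with von Willebrand factor A domains, had the largest fold of any member in a drug-versus-vehicle comparison. It averaged 0.48 ± 0.397 CPM in vehicle, 5.13 ± 4.58 CPM after mXTX301 and 2.71 ± 1.97 CPM after the unmasked control on day 7. It was 10.7-fold higher (log2 3.42 ± 0.75, adjusted p = 0.000532) and 5.66-fold higher (log2 2.50 ± 0.72, adjusted p = 0.00645), and without mXTX301 replicate 5 the former was log2 2.79 (adjusted p = 0.00309). On day 4 it was 3.7-fold higher (log2 1.89 ± 0.71, adjusted p = 0.0424) after mXTX301, a call lost without vehicle replicate 1, 2, 4 or 5 or mXTX301 replicate 2, 3, 4 or 5 (log2 1.68 to 1.93, adjusted p = 0.0576 to 0.107). It was lost too without the skin-rich libraries (log2 1.63, adjusted p = 0.117). The day 4 difference after the unmasked control was log2 1.79 ± 0.71, adjusted p = 0.0688. Col8a2, of the short-chain network type VIII, rose after mXTX301 on day 7, 3.1-fold higher (log2 1.63 ± 0.62, adjusted p = 0.0321), outside the naming rule. The call was lost without vehicle replicate 1, 2, 3 or 4 or mXTX301 replicate 3 or 5 (log2 1.38 to 1.66, adjusted p = 0.0506 to 0.0874), and without the skin-rich libraries (log2 2.02, adjusted p = 0.0974).

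Col7a1, the chain of the anchoring fibrils that hold skin epithelium to the dermis, averaged 598 ± 165 CPM in vehicle and 353 ± 28 CPM after the unmasked control on day 4, 1.69-fold lower (log2 -0.76 ± 0.22, adjusted p = 0.0128). On day 7 it differed by log2 -0.50 ± 0.22, adjusted p = 0.058 after mXTX301 and log2 -0.35 ± 0.22, adjusted p = 0.188 after the unmasked control. Col17a1, the hemidesmosome collagen of the same epithelium, was not called in any drug comparison. Its 5 unmasked control values of day 7 averaged 11.9 ± 15.3 CPM and its vehicle values 9.49 ± 18.1 CPM, with SDs larger than the means. None of the 12 skin epithelium markers was called in any drug-versus-vehicle comparison, and their summed level ran from 5.42 to 845 CPM in vehicle tumours of day 7 and from 6.23 to 777 CPM after the unmasked control.

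mXTX301 at 0.39 mg/kg and the unmasked control at 0.03 mg/kg were also set against each other, and the doses differ. edgeR's quasi-likelihood test called no member on either day, and 0% of all genes on both days. At an unadjusted p under 0.05 there were 7 members on day 4 and 1 on day 7, beside 2092 and 898 of all 15482 genes. DESeq2 called 0 members and 24 genes on day 4 and 0 members and 13 genes on day 7. Fitted on the compared groups alone, edgeR called 194 of 14328 genes on day 4 and 0 on day 7, with 0 members higher and 0 lower on day 4. The 95% intervals are in parentheses, for the 3 members of each class with the highest mean count, which is not corrected for gene length. On day 4, mXTX301 minus unmasked control in log2 was 0.68 (-0.10 to 1.45) for Col3a1, 0.66 (-0.10 to 1.42) for Col1a1 and 0.28 (0.05 to 0.51) for Col5a1. For the type VI chains it was 0.28 (-0.18 to 0.73) for Col6a1, 0.28 (-0.22 to 0.77) for Col6a2 and 0.31 (-0.01 to 0.62) for Col6a3. The basement membrane chains gave 0.20 (-0.16 to 0.57) for Col4a1, 0.13 (-0.22 to 0.48) for Col4a2 and 0.17 (-0.20 to 0.53) for Col18a1, and the cartilage chains 0.42 (0.02 to 0.81) for Col9a3, 0.40 (0.06 to 0.74) for Col11a2 and 0.01 (-0.57 to 0.59) for Col11a1. On day 7 the values were 0.86 (0.08 to 1.64) for Col3a1, 0.36 (-0.40 to 1.11) for Col1a1, -0.10 (-0.33 to 0.13) for Col5a1, -0.22 (-0.68 to 0.23) for Col6a1, -0.24 (-0.73 to 0.25) for Col6a2 and -0.17 (-0.48 to 0.15) for Col6a3. They were 0.15 (-0.21 to 0.52) for Col4a1, 0.13 (-0.22 to 0.49) for Col4a2, -0.17 (-0.54 to 0.20) for Col18a1, 0.01 (-0.39 to 0.40) for Col9a3, -0.16 (-0.50 to 0.17) for Col11a2 and 0.46 (-0.12 to 1.04) for Col11a1. The adjusted p of these differences were all above 0.05, from 0.302 to 0.996, which does not show that the agents acted alike.

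Between days 4 and 7, no member was called in vehicle tumours (all genes, 0.0194% higher, 0.0194% lower and 0.0388% in all). There were 7 members at an unadjusted p under 0.05, beside 2932 of all 15482 genes, and DESeq2 called 1 member. Over all genes 625 were called by DESeq2, 187 by edgeR without the skin-rich libraries and 86 with the replicate block, beside 6 here. Within mXTX301 tumours, 3 members rose and none fell (all genes, 7.88%, 6.6% and 14.5%): Col13a1, a transmembrane collagen (log2 1.11 ± 0.31, adjusted p = 0.0232), Col14a1 (log2 1.75 ± 0.56, adjusted p = 0.0373) and Col4a2 (log2 0.50 ± 0.17, adjusted p = 0.0488). The call of Col13a1 was lost without mXTX301 day 4 replicate 1, 2 or 4 or mXTX301 day 7 replicate 4 or 5 (log2 0.90 to 1.10, adjusted p = 0.0562 to 0.0713). That of Col14a1 was lost without mXTX301 day 4 replicate 1, 2, 4 or 5 or mXTX301 day 7 replicate 4 or 5 (log2 0.95 to 1.82, adjusted p = 0.0549 to 0.241). That of Col4a2 was lost without mXTX301 day 4 replicate 1, 2, 4 or 5 or mXTX301 day 7 replicate 1, 4 or 5 (log2 0.23 to 0.52, adjusted p = 0.0632 to 0.297). Without the skin-rich libraries Col14a1 held (log2 2.36, adjusted p = 0.0258), while Col13a1 (log2 1.12, adjusted p = 0.0745) and Col4a2 (log2 0.70, adjusted p = 0.0519) did not.

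Within unmasked control tumours, 14 members were higher on day 7 than on day 4 and none lower, where 14.4% of all genes rose and 11.5% fell (25.9% in all). The median log2 difference was 0.52 over the 36 members, beside 0.03 over all genes. The 12 with the smallest adjusted p were, first, Col5a3 (log2 0.66 ± 0.13, adjusted p = 0.00159), Col27a1 (log2 0.92 ± 0.26, adjusted p = 0.0115), Col11a2 (log2 0.58 ± 0.16, adjusted p = 0.0119), Col18a1 (log2 0.62 ± 0.18, adjusted p = 0.0141), Col23a1 (log2 1.66 ± 0.50, adjusted p = 0.0177) and Col13a1 (log2 0.99 ± 0.31, adjusted p = 0.0212). Then followed Col12a1 (log2 1.39 ± 0.44, adjusted p = 0.0224), Col6a3 (log2 0.47 ± 0.15, adjusted p = 0.0269), Col15a1 (log2 0.90 ± 0.30, adjusted p = 0.0295), Col5a1 (log2 0.33 ± 0.11, adjusted p = 0.031), Col4a1 (log2 0.52 ± 0.18, adjusted p = 0.0317) and Col4a2 (log2 0.49 ± 0.17, adjusted p = 0.035). All 4 classes were represented, with 3 of 8 fibrillar, 2 of 6 cartilage, 4 of 6 basement membrane and 5 of 16 other members higher. Leaving out 1 library at a time, the count of 14 fell furthest, to 5, without unmasked control day 4 replicate 3, and to 6 without day 4 replicate 5 or day 7 replicate 4. The calls of Col5a3, Col27a1, Col11a2 and Col18a1 held on leaving out each library in turn. The call of Col23a1, a transmembrane collagen, was lost without unmasked control day 4 replicate 3 or unmasked control day 7 replicate 2 (log2 1.29 to 1.47, adjusted p = 0.0545 to 0.0713). For Col13a1 it was lost without unmasked control day 4 replicate 3 or 4 or unmasked control day 7 replicate 4 or 5 (log2 0.80 to 0.92, adjusted p = 0.0548 to 0.072). For Col12a1 it was lost without unmasked control day 4 replicate 1, 3 or 5 or unmasked control day 7 replicate 2 or 5 (log2 1.05 to 1.29, adjusted p = 0.0505 to 0.0908). For Col6a3 it was lost without unmasked control day 4 replicate 1 or 5 or unmasked control day 7 replicate 3 or 4 (log2 0.37 to 0.44, adjusted p = 0.0542 to 0.0826). For Col15a1 it was lost without unmasked control day 4 replicate 1, 3, 4 or 5 or unmasked control day 7 replicate 3, 4 or 5 (log2 0.69 to 0.90, adjusted p = 0.0544 to 0.112). For Col5a1 it was lost without unmasked control day 4 replicate 1, 3 or 5 or unmasked control day 7 replicate 2, 3 or 4 (log2 0.25 to 0.33, adjusted p = 0.05 to 0.0993). For Col4a1 it was lost without unmasked control day 4 replicate 3, 4 or 5 or unmasked control day 7 replicate 2, 4 or 5 (log2 0.40 to 0.51, adjusted p = 0.0583 to 0.121). For Col4a2 it was lost without unmasked control day 4 replicate 3, 4 or 5 or unmasked control day 7 replicate 2, 4 or 5 (log2 0.37 to 0.49, adjusted p = 0.0611 to 0.136). Without the skin-rich libraries, which leaves 3 tumours of day 4 and 2 of day 7, none of the 14 was called and 0 of 15412 genes were. Of 10 endothelial markers 8 rose over the same interval, as did 7 of 10 pericyte and smooth muscle, 4 of 12 fibroblast and 7 of 8 macrophage markers. Of 8 skeletal muscle markers none was called, but their summed level ran from 5.72 to 168 CPM (median 93.7) on day 4 and from 131 to 601 CPM (median 300.1) on day 7. In vehicle tumours of day 7 it ran from 29.3 to 162 CPM (median 55.9). The summed macrophage markers had medians of 844 and 3260.2 CPM on days 4 and 7. The part of these markers in the collagen values was not tested.

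For the same 12 members in vehicle tumours, the log2 difference of day 7 from day 4 was 0.01 ± 0.38 for Col3a1, 0.01 ± 0.36 for Col1a1 and 0.19 ± 0.11 for Col5a1. It was 0.52 ± 0.22 for Col6a1, 0.57 ± 0.24 for Col6a2 and 0.15 ± 0.15 for Col6a3. For the basement membrane chains it was 0.41 ± 0.18 (Col18a1), 0.28 ± 0.18 (Col4a1) and 0.25 ± 0.17 (Col4a2), and for the cartilage chains -0.09 ± 0.19 (Col9a3), -0.12 ± 0.16 (Col11a2) and 0.75 ± 0.28 (Col11a1). The edgeR adjusted p of these 12 ran from 0.156 to 0.996. Within mXTX301 tumours the same difference was 0.80 ± 0.38 for Col3a1, 0.49 ± 0.37 for Col1a1, -0.05 ± 0.11 for Col5a1, -0.10 ± 0.22 for Col6a1, -0.10 ± 0.24 for Col6a2 and -0.00 ± 0.15 for Col6a3. It was 0.28 ± 0.18 for Col18a1, 0.47 ± 0.18 for Col4a1, 0.10 ± 0.19 for Col9a3, 0.02 ± 0.16 for Col11a2 and 0.09 ± 0.28 for Col11a1, none called apart from Col4a2, given above. Within unmasked control tumours the uncalled ones were Col3a1 (0.62 ± 0.38), Col1a1 (0.80 ± 0.37), Col11a1 (-0.36 ± 0.28), Col6a1 (0.40 ± 0.22) and Col6a2 (0.41 ± 0.24), and Col9a3 and Col14a1 also rose (log2 0.51 ± 0.19, adjusted p = 0.0498 and log2 1.57 ± 0.55, adjusted p = 0.0393), beyond the 12 named. The call of Col9a3 was lost without unmasked control day 4 replicate 2, 3, 4 or 5 or unmasked control day 7 replicate 1, 2, 3, 4 or 5 (log2 0.43 to 0.50, adjusted p = 0.0573 to 0.138). That of Col14a1 was lost without unmasked control day 4 replicate 1, 3, 4 or 5 or unmasked control day 7 replicate 2, 4 or 5 (log2 1.31 to 1.57, adjusted p = 0.0726 to 0.109).

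How far a drug effect itself changed from day 4 to day 7 was tested as a difference of the effects. For mXTX301 this was 0.79 ± 0.53 in log2 for Col3a1, 0.49 ± 0.52 for Col1a1, -0.24 ± 0.16 for Col5a1, -0.62 ± 0.31 for Col6a1, -0.67 ± 0.34 for Col6a2 and -0.15 ± 0.22 for Col6a3. It was -0.13 ± 0.25 for Col18a1, 0.19 ± 0.25 for Col4a1, 0.25 ± 0.24 for Col4a2, 0.19 ± 0.27 for Col9a3, 0.14 ± 0.23 for Col11a2 and -0.65 ± 0.40 for Col11a1, with edgeR adjusted p from 0.212 to 0.781. For the unmasked control it was 0.60 ± 0.53 for Col3a1, 0.79 ± 0.52 for Col1a1, 0.14 ± 0.16 for Col5a1, -0.12 ± 0.31 for Col6a1, -0.16 ± 0.34 for Col6a2 and 0.32 ± 0.22 for Col6a3. The others gave 0.21 ± 0.25 for Col18a1, 0.24 ± 0.25 for Col4a1, 0.24 ± 0.24 for Col4a2, 0.59 ± 0.27 for Col9a3, 0.71 ± 0.23 for Col11a2 and -1.11 ± 0.40 for Col11a1, with adjusted p from 0.0627 to 0.835. The larger Col11a1 fold of day 7 was not shown to differ from that of day 4 in either drug comparison.

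Across the 30 libraries, with each group's mean removed, the level of each member was set against the mean log2 CPM of the 12 fibroblast markers. There were 36 such relations, with 2-sided permutation tests of Pearson's r and Spearman's rho (100000 permutations, for which the smallest p is 1e-05) and Benjamini-Hochberg adjustment over the 36. Both measures come from the same libraries and share their depth and scaling. For 12 members r was positive and called, and for 1 negative. The relation was not computed for the other tested genes, so no share of all genes can be set beside these counts. Col14a1 gave r = 0.901 and rho = 0.897 (permutation p = 1e-05 and 1e-05, adjusted p = 7.2e-05 and 7.2e-05). Col28a1 gave r = 0.86 and rho = 0.847 (permutation p = 1e-05 and 1e-05, adjusted p = 7.2e-05 and 7.2e-05), and Col3a1 gave r = 0.849 and rho = 0.822 (permutation p = 1e-05 and 1e-05, adjusted p = 7.2e-05 and 7.2e-05). For Col14a1 r was 0.878 without the 2 farthest libraries, 0.935 in the 18 skin-poor and 0.821 in the 12 skin-rich libraries. For Col28a1 it was 0.861 without the 2 farthest libraries, 0.909 in the 18 skin-poor and 0.71 in the 12 skin-rich libraries. For Col3a1 it was 0.812 without the 2 farthest libraries, 0.881 in the 18 skin-poor and 0.783 in the 12 skin-rich libraries. Col1a1, not called in any drug comparison, gave r = 0.79 and rho = 0.826 (permutation p = 1e-05 and 1e-05, adjusted p = 7.2e-05 and 7.2e-05), with r 0.749 without the 2 farthest libraries, 0.854 in the 18 skin-poor and 0.819 in the 12 skin-rich libraries. Col1a2 gave r = 0.79 and rho = 0.81 (permutation p = 1e-05 and 1e-05, adjusted p = 7.2e-05 and 7.2e-05), with r 0.749 without the 2 farthest libraries, 0.851 in the 18 skin-poor and 0.803 in the 12 skin-rich libraries. The farthest libraries were mXTX301 replicate 5 and unmasked control replicate 2 of day 7.

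The other positive relations were those of Col4a2 (r = 0.721), Col5a2 (0.692), Col4a1 (0.675), Col15a1 (0.671), Col8a2 (0.614), Col24a1 (0.54) and Col20a1 (0.494), with permutation p adjusted over the 36 from 0.00036 to 0.0066. Within the skin-rich libraries r fell to 0.271 for Col15a1, 0.368 for Col4a1 and 0.39 for Col8a2. Col22a1 gave r = -0.599 and rho = -0.595 (permutation p = 0.00372 and 0.00359, adjusted p = 0.0103 and 0.0117), with r -0.499 without the 2 farthest libraries, -0.579 in the 18 skin-poor and -0.522 in the 12 skin-rich libraries. The other members that fell on day 7 gave no called relation. For Col4a5 r was -0.453 (permutation p adjusted over the 36, 0.0706), and it was -0.398 for Col6a1 and -0.395 for Col6a2 (0.104 for each). It was -0.314 for Col11a1 (0.155), -0.358 for Col16a1 (0.161) and -0.0698 for Col5a1 (0.761). Col9a2 gave -0.234 (0.33), Col5a3 -0.191 (0.421) and Col9a1 -0.144 (0.551).

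**Figure D4:**
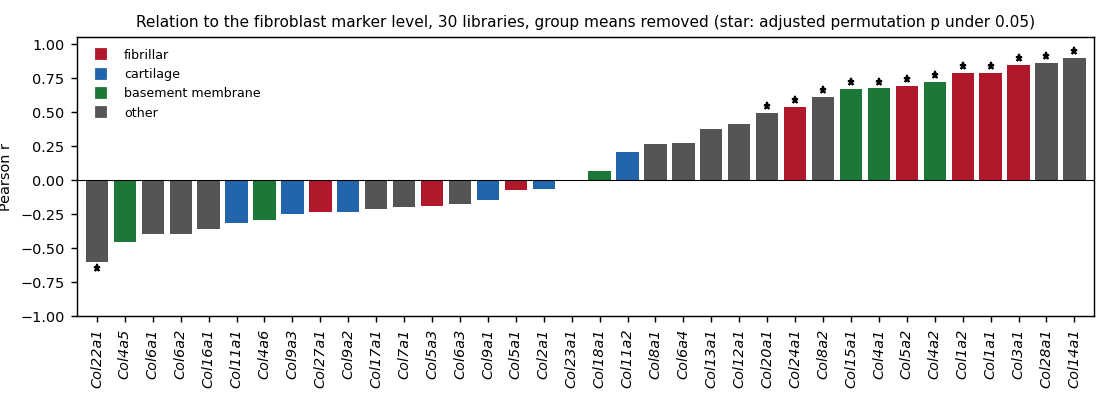
Pearson's r (vertical axis) between each of the 36 members and the fibroblast marker level over 30 libraries with group means removed, ordered by r and coloured by class. Stars mark an adjusted permutation p under 0.05. The 12 starred positive bars include Col1a1, Col1a2 and Col3a1. At the negative end Col22a1 is starred, and Col4a5, Col6a1 and Col6a2 are not.

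Genes that make and handle collagen were read from lists chosen for their roles. Over all genes, 16.2% rose and 16% fell after mXTX301 on day 4, and 25.7% and 22.7% on day 7. After the unmasked control these shares were 11.6% and 10.8% on day 4, and 23.2% and 21.8% on day 7. Of 15 genes of prolyl and lysyl modification, 1 rose and 6 fell after mXTX301 on day 4, 1 and 7 on day 7, 0 and 6 after the unmasked control on day 4, and 0 and 5 on day 7. On day 7 after mXTX301 these falls were small, and were led by P3h4 (log2 -0.53 ± 0.08, adjusted p = 1.16e-05) and P3h1 (log2 -0.43 ± 0.07, adjusted p = 3.47e-05), of prolyl 3-hydroxylation, P4hb (log2 -0.38 ± 0.09, adjusted p = 0.000764), a subunit of prolyl 4-hydroxylase, and Colgalt1 (log2 -0.17 ± 0.04, adjusted p = 0.00133), which adds galactose to hydroxylysine. Of 11 folding and export genes, 1 rose and 4 fell after mXTX301 on day 4, 1 and 4 on day 7, 0 and 3 after the unmasked control on day 4, and 1 and 4 on day 7. Fkbp10, an endoplasmic reticulum prolyl isomerase needed for collagen cross-linking, fell in all 4 comparisons (mXTX301 on day 7, log2 -0.73 ± 0.09, adjusted p = 2.83e-07). Others that fell there were Sec23a (log2 -0.41 ± 0.07, adjusted p = 1.26e-05), of COPII vesicles, and Kdelr2 (log2 -0.41 ± 0.08, adjusted p = 0.000165), the retrieval receptor. Tmem38b rose there (log2 0.60 ± 0.12, adjusted p = 0.000282).

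Among genes of the extracellular steps more rose than fell on day 7. Over all genes, 25.7% rose and 22.7% fell after mXTX301 on that day, and 23.2% and 21.8% after the unmasked control. Of 12 genes of propeptide cleavage and cross-linking, 0 rose and 1 fell after mXTX301 on day 4, 6 and 1 on day 7, 0 and 1 after the unmasked control on day 4, and 5 and 1 on day 7. Bmp1, the C-propeptide protease (log2 0.40 ± 0.09, adjusted p = 0.00062), Adamts2, an N-propeptide protease (log2 1.48 ± 0.39, adjusted p = 0.00277), Loxl1, a lysyl oxidase (log2 1.72 ± 0.46, adjusted p = 0.00346), and Adamts3 (log2 2.05 ± 0.69, adjusted p = 0.0161) led after mXTX301. After the unmasked control the 4 with the smallest adjusted p were Pcolce, an enhancer of C-propeptide cleavage, which fell (log2 -0.39 ± 0.10, adjusted p = 0.00345), and Loxl3 (log2 0.49 ± 0.14, adjusted p = 0.00499), Adamts14 (log2 0.47 ± 0.14, adjusted p = 0.0064) and Bmp1 (log2 0.26 ± 0.09, adjusted p = 0.0183), which rose. Of 15 genes of fibril-associated matrix, 0 rose and 0 fell after mXTX301 on day 4, 6 and 0 on day 7, 0 and 3 after the unmasked control on day 4, and 4 and 0 on day 7. The small leucine-rich proteoglycans Lum (log2 1.84 ± 0.45, adjusted p = 0.00156), Bgn (log2 1.37 ± 0.34, adjusted p = 0.00184), Prelp (log2 2.91 ± 0.74, adjusted p = 0.00228) and Ogn (log2 2.69 ± 0.70, adjusted p = 0.00257) led on day 7 after mXTX301. This list shares Dcn, Lum and Postn with the fibroblast markers.

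Over all genes, 48.4% were called after mXTX301 on day 7 and 45% after the unmasked control, and 32.2% and 22.4% on day 4. After mXTX301 on day 7 the counts of each list in this paragraph lie near the 48.4% of all genes. Of 15 partners of basement membrane collagens, 1 rose and 1 fell after mXTX301 on day 4, 3 and 5 on day 7, 0 and 1 after the unmasked control on day 4, and 1 and 3 on day 7. Nid2, which links laminin to type IV collagen, fell after mXTX301 on day 7 (log2 -1.20 ± 0.18, adjusted p = 7.34e-06), as did the laminin chains Lamc1 (log2 -0.36 ± 0.08, adjusted p = 0.00053) and Lama1 (log2 -2.29 ± 0.53, adjusted p = 0.000863), while the laminin chain Lamb2 rose (log2 0.47 ± 0.10, adjusted p = 0.00033). Of 10 collagen receptors, 2 rose and 0 fell after mXTX301 on day 4, 4 and 1 on day 7, 1 and 0 after the unmasked control on day 4, and 4 and 1 on day 7. Lair1, an inhibitory collagen receptor of leukocytes, rose on day 7 (log2 1.36 ± 0.26, adjusted p = 0.00013 after mXTX301, log2 1.23 ± 0.26, adjusted p = 0.000406 after the unmasked control). So did the collagen-binding integrin chains Itga1 (log2 0.84 ± 0.21, adjusted p = 0.00188 and log2 0.96 ± 0.21, adjusted p = 0.000606) and Itga11 (log2 2.00 ± 0.57, adjusted p = 0.00498 and log2 2.26 ± 0.57, adjusted p = 0.00217). Itgb1, their common partner, fell after mXTX301 (log2 -0.22 ± 0.05, adjusted p = 0.00148). Of 15 ligands, receptors and targets of TGF-β, which drives collagen transcription in fibroblasts, 1 rose and 1 fell after mXTX301 on day 4, 5 and 3 on day 7, 2 and 2 after the unmasked control on day 4, and 4 and 2 on day 7. The co-receptor Tgfbr3 rose in all 4 (log2 0.94 ± 0.15, adjusted p = 4.2e-05 after mXTX301 on day 4 and log2 1.21 ± 0.15, adjusted p = 4.1e-07 on day 7). With the unmasked control it gave log2 0.95 ± 0.15, adjusted p = 4.82e-05 and log2 0.79 ± 0.15, adjusted p = 0.000103. The latency proteins Ltbp2 (log2 1.23 ± 0.30, adjusted p = 0.00154) and Ltbp3 (log2 0.50 ± 0.11, adjusted p = 0.000492) rose and the ligand Tgfb3 fell (log2 -0.50 ± 0.13, adjusted p = 0.0028) after mXTX301 on day 7.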

How the data were processed

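The authors' processing is known only from the submitters' processing notes, which name these tools without a role or setting: edgeR 3.34.0, R 4.1.0, HTSeq 0.11.1, STAR 2.7.10a, FastQC 0.11.9 and cutadapt, and the build mm10. Library strand is not given in the sources used here, so reads of overlapping or antisense genes cannot be told apart. The deposited count table held raw whole-number counts for 24557 rows. A second deposited table, of log2 values, served as a check only: log2 CPM recomputed from the counts (TMM, prior count 2) differed from it by at most 0.000196 over 14875 genes.

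From the counts, 5 rows with a repeated symbol were dropped. edgeR 4.0.16 in R 4.3.3 kept 15482 genes (filterByExpr) and fitted the 6 group means together, with TMM scaling, robust dispersions and 24 residual degrees of freedom (biological coefficient of variation 27.3%). The standard error of a log2 fold change was worked back from the test, as its absolute value divided by the square root of F. The 95% intervals take this error and a t distribution with 24 degrees of freedom, so they need not match the test's p exactly. Each library came from its own mouse, and over 60 pairs within groups the chi-square per degree of freedom of the counts was 10.8 or more, so none was counted as a duplicate. The scripts were tested on simulated data.

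The members, gene lists and tests were chosen with earlier results of these data known. In each comparison called members are named (the 12 with the smallest adjusted p where there are more) with the 3 of each class highest in mean count, uncorrected for length. Values in every library are given for the 2 highest of each class and 4 members with the smallest adjusted p. Beyond that rule Col1a2, Col5a2, Col8a2, Col9a1, Col4a5 and Col22a1 (mXTX301 on day 7), the chain ratios, and the promoters and their motifs were chosen after values were seen. Gene coordinates are those of RefSeq on GRCm38.p6, and exon lengths come from GENCODE. Alternatives were RLE scaling, DESeq2 1.42.0, no filter, only the compared groups, a replicate block, and leaving out each library or the skin-rich libraries. In a further one the mean log2 CPM of the 12 skin epithelium markers was a covariate.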

Additional observations from a re-analysis of the deposited data

Results flagged for a closer look

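Of 72 groups tested for a single far value (12 members in 6 groups of 5), 7 had a highest or lowest library whose gap to its neighbour took up more of the group's range than Dixon's 95% limit allows, and chance gives about 1 in 20. Col3a1 stood at 1247 CPM in vehicle day 7 replicate 3, with the next library at 714, and at 657 CPM in mXTX301 day 4 replicate 1, below the next at 1144. Col4a1 stood at 444 CPM in mXTX301 day 7 replicate 5, above 231. Col9a3 was at 13.6 CPM in unmasked control day 4 replicate 1, above 8.8, and at 14.5 CPM in unmasked control day 7 replicate 2, above 13.1. Col6a3 was at 1112 CPM in vehicle day 7 replicate 2, below 1673, and Col16a1 at 322 CPM in unmasked control day 4 replicate 3, above 280.4. The change of the mXTX301 effect on Col22a1 between days, by a test of the difference itself, was -1.73 in log2 (edgeR adjusted p = 0.0318).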

How the results depend on the processing

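Of 61 called member values, 0 changed direction under any alternative and 21 kept their call in all of them; a sign change of a value uncalled under both settings was not counted. Counts of members called moved by over 1.5 times in these cases. After mXTX301 on day 4, members higher went from 2 to 0 with no filter and 1 without the skin-rich libraries, and members lower from 1 to 2 with the replicate block and 2 without the skin-rich libraries. After the unmasked control on day 4, DESeq2 called 1 higher in place of 0, and without the skin-rich libraries 4 were lower in place of 10. On day 7, 2 were higher and 3 lower without the skin-rich libraries, in place of 6 and 6, and DESeq2 called 10 lower. From day 4 to day 7, DESeq2 called 1 higher in vehicle and 1 lower in the unmasked control, in place of 0; mXTX301 gave 1 with no filter and 1 without the skin-rich libraries in place of 3, and the unmasked control 0 in place of 14. Of the changes of an effect between days, mXTX301 had 2 lower in place of 1 without the skin-rich libraries. The unmasked control had 1 higher and 1 lower with DESeq2 and 1 higher with the skin marker level as a covariate, in place of 0. Leaving out the skin-rich libraries leaves 2 libraries in vehicle and unmasked control day 7. The cause was not tested for any of these shifts.

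Leaving out 1 library at a time, the count of members higher and lower ran from 0 to 1 and 1 to 3 after mXTX301 on day 4, 6 to 10 and 7 to 10 on day 7, 0 to 1 and 6 to 10 after the unmasked control on day 4, and 4 to 10 and 6 to 10 on day 7. From day 4 to day 7 it ran from 0 to 1 and 0 in vehicle, 0 to 4 and 0 in mXTX301 and 5 to 18 and 0 to 1 in the unmasked control. The change of effect gave 0 to 1 and 0 to 2 for mXTX301 and 0 to 4 and 0 to 1 for the unmasked control, and mXTX301 against the unmasked control 0 in both directions on both days. Replicate numbers did not pair libraries: over 2000 genes the deviations of same-numbered libraries correlated at 0.0465 on average (lowest -0.687), and 9 of 30 libraries correlated best with their own number. With the replicate block 8 members were higher and 10 lower after mXTX301 on day 7. Depth limits Col9a1, Col6a4 and Col22a1 most.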
